A study of Rattus norvegicus with 22 samples.

Results

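The livers of 6 rats fed with BASE-diet for 14 months (BD 14) were compared with the livers of 5 rats fed with it for 3 months (BD 3). These are 11 of the 22 arrays of the study, and they were chosen by their labels, with no measured value. The BASE-diet was a semi-synthetic diet enriched with biologically active substances: salmon fat in place of lard, a water extract of linden inflorescence, pumpkin puree and a pair of probiotic bacterial strains. The rats were male Sprague-Dawley rats, 8 weeks old when feeding began, and different rats were killed at each time. Rats on the same semi-synthetic diet without these additions, 5 after 3 months (CD 3) and 6 after 14 months (CD 14), served as controls for time. The RNA of each rat (Cy5) was measured against a common reference RNA (Cy3) from young healthy rats outside the experiment, so a value is a log2 ratio to that reference. The methods of the study also describe this common reference, but in another sentence they give Cy3 to the control rats, in which case a ratio would be to control rats. The labels were followed here, and both sources give Cy5 to the BASE-diet rats. A difference of 1 on this scale is a doubling. The comparison asks what differed in the liver between the shorter and the longer feeding with BASE-diet. The BD 14 rats were also older when killed than the BD 3 rats, so age and length of feeding cannot be told apart.

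The liver meets food and microbial products first, and its hepatocytes share the tissue with Kupffer cells, which are its resident macrophages, and with lymphocytes, endothelial and stellate cells. Interferons are signals of the innate immune response. They act through transcription factors such as Irf9 and Irf7 on a large set of antiviral genes, which carry an element for these factors in their promoters. The liver also makes most plasma proteins, synthesises fatty acids and cholesterol after feeding, and clears foreign compounds with cytochrome P450 enzymes.

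No probe passed limma's adjusted p of 0.05 between BD 14 and BD 3 among the 19282 tested, which report 16939 genes, and the share called was 0%. The smallest adjusted p was 0.0535. It was shared by probes for Nrg1, Isg15 and Dph3, the last of which was picked after its value was seen. An unadjusted p under 0.05 was found for 1421 probes, of which 902 were higher and 519 were lower in BD 14. With the arrays centred on their medians the split was 750 higher and 682 lower, with normexp and loess 583 and 534, and in the Cy5 channel alone 1272 and 1414. Over genes, each represented by its brightest probe, 727 (4.29%) were higher in BD 14 with an unadjusted p under 0.05 and 491 (2.9%) were lower. The BD 14 and BD 3 arrays did not overlap for 181 genes (1.07%) that were higher in BD 14 and 194 (1.15%) that were lower. These shares are the background for the counts given below. The differences are therefore described by their size, their spread and their array values, and none of them passed the adjusted test over all probes.

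The slides could not be told apart from time within the BASE-diet. All 6 BD 14 arrays lay on 1 slide (slide C), while BD 3 arrays lay on slide A (rats 3 to 5) and slide B (rats 1 and 2). CD 14 arrays link slides A and C, since 2 lay on slide C and 3 on slide A with the same diet and time. None lay on slide B, which held BD 3 rats 1 and 2. The difference of the CD 14 arrays, slide C minus slide A, is given below as the CD 14 slide difference. It rests on 5 arrays and does not cover slide B. On slide A, CD 14 rat 1 and rat 3 had 90.6% and 88.8% of their spots well above background in Cy5, against 67.9 to 69.0% for the other 3. Of the 1218 genes at an unadjusted p under 0.05, 76.4% had the same sign in the CD 14 slide difference, against 63.0% of all genes. In a fit with the slide as a fixed term (the slide-blocked fit), where BD 3 and BD 14 are linked only through control arrays, 901 probes had an unadjusted p under 0.05 and 105 of the 1218 genes kept theirs with the same sign. The part of the slide in the differences was not tested further. BD 3 rat 5 stood apart in signal, with 92.4% of its spots well above background in Cy5 against 67.5 to 77.0% for the other BD 3 arrays and 69.1 to 74.3% for BD 14. Arrays correlated with each other at a median r of 0.32 within BD 3, 0.50 within BD 14 and 0.33 between them, across the probes tested.

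Many interferon-stimulated effectors had higher values in BD 14 than in BD 3. Of 40 members tested, 20 (50%) were higher in BD 14 at an unadjusted p under 0.05, against 4.29% of all genes, and 1 was lower. The difference was above 0 for 38 of the 40, with a median of 0.90 against 0.06 over all genes. The median over these members was between −0.42 and 0.34 on the BD 3 arrays and between 0.43 and 1.01 on the BD 14 arrays, so the groups did not overlap. Of the 40, 38 were well above background on all 11 arrays and 2 were kept through BD 14 alone, a condition that favours a higher BD 14. With each of the 22 arrays left out in turn the count of higher members lay between 15 and 24, with 15 without BD 3 rat 2. The slide-blocked fit gave 4, with a median of 0.45, and the median CD 14 slide difference of the list was 0.26.

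The promoters of 3 effectors, and of Irf7 from the signalling genes, are shown. Most of the effectors, though not all, hold an element for the factors through which interferons act. The effectors were listed as interferon-stimulated genes, so a high share among them follows from the choice of the list. The interferon-stimulated response element was searched as GAAANNGAAA on both strands in the 300 bases around each gene's start (250 before and 50 after) of the RefSeq table, build GRCr8. It was found for 23 of the 31 effectors that have a promoter in the table (74.2%), for 12 of the 17 that were higher at an unadjusted p under 0.05 (70.6%), and in 3.92% of all 33469 promoters. Among interferon signalling genes and sensors it was found for 3 of 16 (18.8%). Irf7 (chr1:205799974-205800273, minus strand), Ifi44l (chr2:243328473-243328772, plus strand) and Oas1i (chr12:41284976-41285275, plus strand) hold it, and Oasl (chr12:47356243-47356542, minus strand) had no match in this window. The sequences run 5′ to 3′, with matches on either strand in capitals.
Irf7: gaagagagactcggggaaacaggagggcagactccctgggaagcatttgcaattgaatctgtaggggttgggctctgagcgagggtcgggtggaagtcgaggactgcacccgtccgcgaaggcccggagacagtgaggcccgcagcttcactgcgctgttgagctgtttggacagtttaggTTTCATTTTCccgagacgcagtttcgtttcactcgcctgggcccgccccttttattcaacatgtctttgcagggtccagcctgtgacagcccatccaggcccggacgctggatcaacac
Ifi44l: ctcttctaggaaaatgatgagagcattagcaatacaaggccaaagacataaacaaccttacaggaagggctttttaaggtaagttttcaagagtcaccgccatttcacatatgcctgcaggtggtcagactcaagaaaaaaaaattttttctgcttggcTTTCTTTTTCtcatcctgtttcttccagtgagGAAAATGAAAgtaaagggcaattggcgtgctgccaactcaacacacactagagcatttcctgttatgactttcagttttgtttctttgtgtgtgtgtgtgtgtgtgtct
Oas1i: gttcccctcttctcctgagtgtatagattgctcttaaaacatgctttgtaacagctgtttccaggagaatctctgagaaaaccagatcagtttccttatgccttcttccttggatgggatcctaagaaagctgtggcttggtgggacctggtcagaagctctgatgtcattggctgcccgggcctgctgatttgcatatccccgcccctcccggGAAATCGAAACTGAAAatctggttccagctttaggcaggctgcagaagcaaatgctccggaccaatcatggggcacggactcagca
Oasl: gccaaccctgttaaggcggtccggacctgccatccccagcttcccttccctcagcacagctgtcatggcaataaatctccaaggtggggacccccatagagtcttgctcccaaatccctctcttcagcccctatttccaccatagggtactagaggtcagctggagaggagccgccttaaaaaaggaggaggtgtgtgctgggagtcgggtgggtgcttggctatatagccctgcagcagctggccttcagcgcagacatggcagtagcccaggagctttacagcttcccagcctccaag
The match in Irf7 begins 69 bases before the start, those in Ifi44l 91 and 59 bases before it, and those in Oas1i overlap and begin 36 and 30 bases before it. A match is a description of letters and not evidence of binding in these livers.

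Isg15, a ubiquitin-like protein that interferon induces, had log2 ratios of −0.10, −0.24, −0.89, 0.52 and −1.22 in BD 3. In BD 14 the lowest was 0.68, the median 1.73 and the highest 2.24. Every BD 14 array was above every BD 3 array. The means were −0.39 ± 0.68 (SD, n = 5) and 1.69 ± 0.55 (SD, n = 6), a difference of 2.07 ± 0.35 (SE) or 4.21-fold, with a limma adjusted p of 0.0535. The slide-blocked difference was 2.08 at an adjusted p of 0.99, and the CD 14 slide difference of Isg15 was −0.17. Its probe lies at 173034674 to 173034733 of chromosome 5 in the rat build rn4, by the array's annotation. The Isg15 promoter was not in the sequence table.

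Oasl, a relative of the 2′-5′-oligoadenylate synthetases that bind viral RNA, had values of 1.03, 0.04, −0.09, 0.41 and 0.10 in BD 3. In BD 14 they ran from 2.04 over a median of 2.30 to 4.28. The groups did not overlap, and BD 14 rat 6 lay far above the other 5. The difference was 2.30 ± 0.51 (SE), at a limma adjusted p of 0.195, and 3 of the 5 BD 3 arrays were well above background for it. The probe of Oasl is annotated at 42958314 to 42959155 of chromosome 12 in rn4. Ifi44l, an interferon-induced antiviral protein, had values of 0.33, 1.30, −0.05, 1.94 and −0.52 in BD 3 and 2.09 to 3.02 in BD 14 (median 2.35). These did not overlap either, the difference being 1.87 ± 0.47, but its CD 14 slide difference was 1.60 and its slide-blocked difference 0.32.

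Oas1i, another synthetase of the same family, had 0.46, 1.37, −1.15, 1.72 and 0.02 in BD 3 and ran from 1.17 to 2.81 in BD 14 (median 1.90), with an overlap of the groups. Its difference was 1.502 ± 0.415 (SE). The remaining members at an unadjusted p under 0.05, named because the count rests on them and not by the naming rule, were Usp18, which removes Isg15 from proteins (2.13), Oas1a (1.76), Oas1k (1.74), Ifi47 (1.73), Herc6 (1.69), Oasl2 (1.43), Samd9 (1.37), Oas3 (1.21), Cmpk2 (1.19), Eif2ak2, the RNA-dependent protein kinase (0.95), Lgals3bp (0.95), Ifit3 (0.91), Mx1 (0.87), Irgm (0.87), Ifitm3 (0.85) and Ifi27 (0.66). Samd9, Ifitm3 and Oas3 turned in the slide-blocked fit to −0.05, −0.13 and −0.84. Of the others just named, Ifi47 was at 0.32 there, Irgm at 0.21, Cmpk2 at 0.18 and Oasl2 at 0.52. Only Usp18 (2.20) and Ifi27 (0.998) were not smaller than in the main fit. Groups did not overlap for 5 higher members, Isg15, Oasl, Ifi44l, Eif2ak2 and Irgm, against 1.07% of all genes. Oasl was kept through BD 14 alone, where it was high. Oas2, picked after its value was seen, was the one member lower at that level, by −0.76 ± 0.30 (SE). Its BD 3 values were 0.14, 0.38, 0.17, −0.01 and −0.36, and all BD 14 values lay between −0.97 and −0.45. The CD 14 slide difference of Oas2 was −0.37 and its slide-blocked difference −0.085. The Oas genes are close relatives, and whether their probes share targets was not tested.

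**Figure D1:**
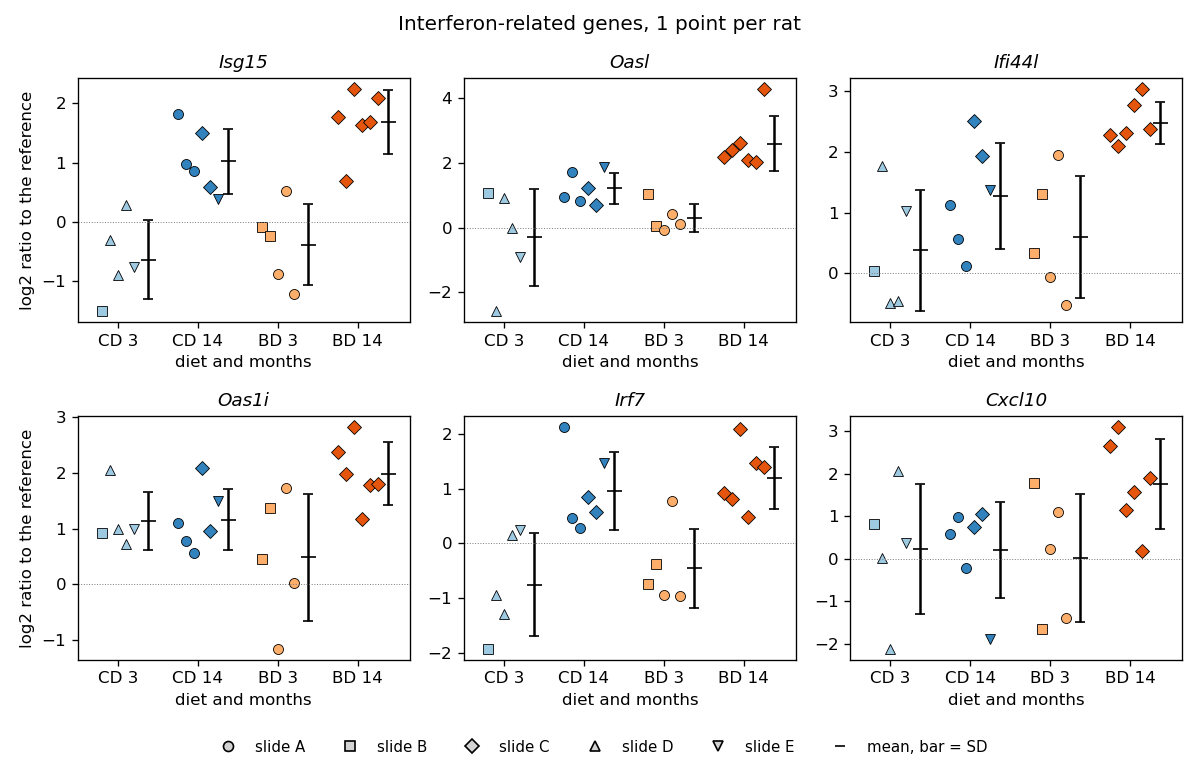
Log2 ratio to the common reference (y) of 6 interferon-related genes by diet and months (x), 1 point per rat, with the shape giving the slide, and the mean with its SD beside each group. The BD 14 points of Isg15, Oasl and Ifi44l lie above all BD 3 points, while those of Oas1i, Irf7 and Cxcl10 overlap them.

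Among interferon signalling genes and sensors of RNA or DNA, 6 of 22 members (27.3%) were higher at an unadjusted p under 0.05, against 4.29% of all genes. At that level 1 was lower. The median difference was 0.37 (0.25 in the Cy5 channel alone and 0.24 with normexp and loess). Of the 22, 1 was kept through BD 14 alone, a condition that favours a higher BD 14. With only the 21 members well above background on all 11 arrays, 5 were higher, with a median of 0.28. Irf7, the transcription factor that amplifies the interferon response, had −0.74, −0.38, −0.94, 0.77 and −0.97 in BD 3. It ran from 0.48 to 2.08 in BD 14, with a median of 1.16. Only BD 3 rat 4 reached into the BD 14 range. The difference of Irf7 was 1.65 ± 0.42 (SE), 3.13-fold, at a limma adjusted p of 0.271, and its CD 14 slide difference was −0.24. Irf9, a DNA-binding part of the complex that interferon activates, differed by 0.83 (0.51 slide-blocked). Zbp1, a sensor of Z-form nucleic acids, was higher by 1.09 with a CD 14 slide difference of 1.46. The helicase Dhx58 was higher by 0.68 and the kinase Jak2 by 0.66. Mavs, the mitochondrial adaptor of RNA sensors, was lower by −0.52 ± 0.22 (−0.33 slide-blocked). In the slide-blocked fit no member of this list was higher at an unadjusted p under 0.05 and 1 was lower, with Zbp1 at −0.14 and Jak2 at −0.30. Without BD 3 rat 2 or without BD 14 rat 1 the count of higher members was 3.

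The time difference of the effectors was of similar size on the control diet. Of the 40 members, 16 were higher and none was lower in CD 14 than in CD 3 at an unadjusted p under 0.05, with a median of 0.84 against 0.90 on BASE-diet. Macrophage and Kupffer cell markers had a median of 1.096 on the control diet, with 14 of 23 higher at that level, and lymphocyte markers 0.43, with 4 of 17 higher. On BASE-diet these medians were 0.33, with 3 higher, and 0.19, with 1 higher. Their part in the effector differences was not tested. The control arrays also differed by slide, with CD 3 on slides B, D and E and CD 14 on slides A, C and E. Slide and time were therefore largely mixed there too. The CD 3 arrays had 52.4 to 93.6% of their spots well above background in Cy5. For Isg15 the control difference was 1.66, for Oasl 1.51 and for Irf7 1.71. Oas1i differed by 0.02 on the control diet, and its interaction of diet and time had an unadjusted p of 0.020 (adjusted p over 0.99). Over all genes, the interaction of diet and time had no probe at a limma adjusted p under 0.05 and 769 genes (4.54%) at an unadjusted p under 0.05. Among the effectors 1 of 40 was at that level, and among the signalling genes and sensors none was. Of the 1218 genes at an unadjusted p under 0.05 on BASE-diet, 72.7% had the same sign on the control diet, against 60.4% of all genes.

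Antigen presentation and chemokines had few members that stood out. The difference was above 0 for 20 of 22 class I members (median 0.32), for 10 of 11 class II members (median 0.13) and for all 16 chemokines (median 0.39). At an unadjusted p under 0.05 there was 1 member in each. Tap1, which carries peptides to class I molecules, had 1.17, −1.01, 0.40, 0.32 and −0.74 in BD 3 and 0.66 to 1.61 in BD 14, a difference of 1.14 ± 0.45 (SE). RT1-DOb, a class II chaperone chain, differed by 1.02 ± 0.35. Cxcl10, a chemokine that interferon induces and that draws T cells, had 1.78, −1.66, 0.22, 1.11 and −1.39 in BD 3 and 0.18 to 3.098 in BD 14. It was 1.75 ± 0.73 higher, with wide overlap. The slide-blocked differences were 0.11 for Tap1, 0.03 for RT1-DOb and 1.003 for Cxcl10. The slide-blocked medians turned to −0.22 for the chemokines and to −0.65 for class II. Without BD 3 rat 2 the median was 0.16 for the chemokines and −0.13 for class II, and without BD 14 rat 6 it was 0.25 for the chemokines, of which 0 to 2 were at that level over the left-out arrays. The CD 14 slide differences had medians of 0.48 and 0.92.

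Markers of immune cells were compared as lists, since immune cells also express interferon genes. In bulk liver, more cells of a type and more RNA per cell cannot be told apart. Of 23 macrophage and Kupffer cell markers, 21 were above 0 (median 0.33), 3 were higher and none was lower at an unadjusted p under 0.05. Over this list the array medians were −1.90 to −0.23 in BD 3 and −1.23 to 0.17 in BD 14, which overlap. The median CD 14 slide difference of the macrophage list was 0.70, and its slide-blocked median turned to −0.49. Cd14, the co-receptor for bacterial lipopolysaccharide, had −0.23, 0.17, 0.00, −0.23 and 0.27 in BD 3. It ran from 0.77 to 2.25 in BD 14 (median 1.07), above every BD 3 array. The difference of Cd14 was 1.33 ± 0.34 (SE), with a limma adjusted p of 0.280 and a CD 14 slide difference of −0.22. The lipid-associated macrophage genes Gpnmb (1.09, and 0.06 slide-blocked) and Trem2 (1.02) were the other members at that level. Of 17 lymphocyte markers tested, 12 were above 0 (median 0.19) and 1 was at that level, the granzyme Gzmk, higher by 1.64 with a CD 14 slide difference of 2.75 and a value of −1.42 in the slide-blocked fit. The array medians of the lymphocyte list were −0.53 to 0.48 in BD 3 and −0.52 to 0.35 in BD 14. Its median CD 14 slide difference was 1.02, and its slide-blocked median turned to −0.53. A further 10 lymphocyte markers on the array, Cd3e and Ms4a1 among them, did not pass the detection filter. The part of immune cells in the interferon differences was not tested.

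**Figure D2:**
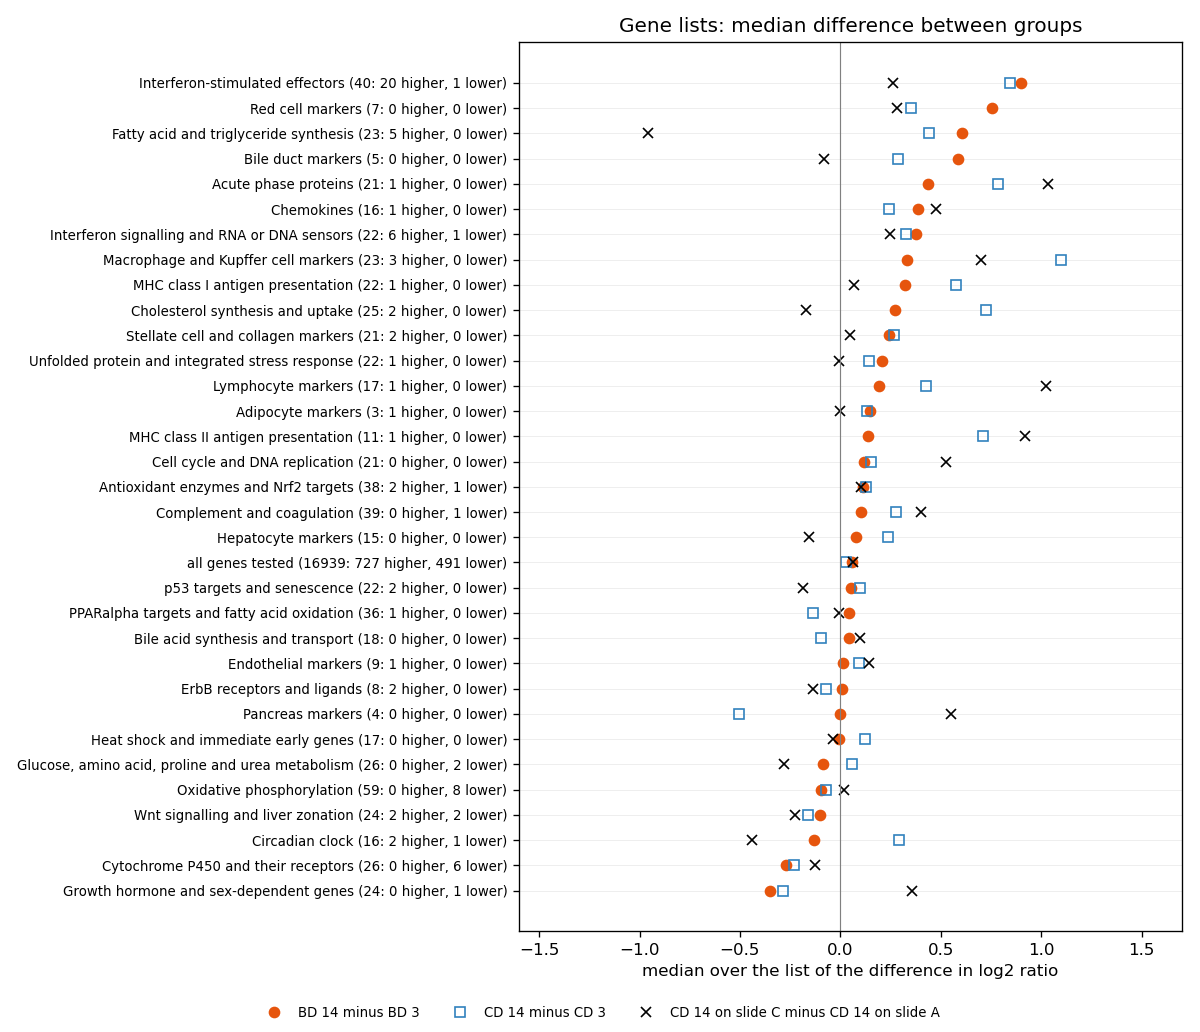
Median difference in log2 ratio over each gene list (x), for BD 14 minus BD 3 (filled circles), CD 14 minus CD 3 (open squares) and CD 14 on slide C minus CD 14 on slide A (crosses). Each label on the y axis gives the members tested and how many with an unadjusted p under 0.05 were higher or lower in BD 14. The circle of the interferon-stimulated effectors lies at 0.90, with 20 of 40 higher, and the crosses of acute phase proteins and of class II antigen presentation lie beyond their circles.

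Nrg1, neuregulin 1, a ligand of the ErbB3 and ErbB4 receptors, had log2 ratios of 1.81, 0.67, 1.30, 1.26 and 0.60 in BD 3. In BD 14 they were 2.69 at the lowest, 3.03 at the median and 4.27 at the highest. All BD 14 values of Nrg1 were above all BD 3 values. The difference was 2.05 ± 0.34 (SE), 4.13-fold, at a limma adjusted p of 0.0535. On the control diet it was 0.89, the interaction had an unadjusted p of 0.026, and the CD 14 slide difference was 0.54. Its probe is annotated at 64093933 to 64093992 of chromosome 16 in rn4. Of the 8 ErbB receptors and ligands tested, 4 were above 0 and 4 below, with a median of 0.01. Hbegf, a ligand of the EGF receptor, was higher by 0.82 ± 0.28, but lower by −0.09 in the slide-blocked fit.

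Lrp5, a Wnt co-receptor, had 1.05, 0.02, 0.08, 0.74 and 0.35 in BD 3. All 6 BD 14 arrays were lower, from −1.23 over a median of −0.92 to −0.50. The difference was −1.37 ± 0.25 (SE), at a limma adjusted p of 0.0821, and −1.07 on the control diet, with a CD 14 slide difference of −0.29. The probe of Lrp5 lies at 206102758 to 206102817 of chromosome 1 in rn4. Of 24 genes of Wnt signalling and liver zonation, 2 were higher and 2 were lower at an unadjusted p under 0.05. The Wnt ligand Wnt11 had 0.56, 0.67, −0.36, −1.24 and −0.54 in BD 3 and 0.57 to 1.60 in BD 14, a difference of 1.16 ± 0.37 against −0.83 on the control diet, with overlap of the groups. Its CD 14 slide difference was −1.13 and its slide-blocked difference 2.72. Its interaction had an unadjusted p of 0.0010 and an adjusted p over 0.99, and 4 of 5 BD 3 arrays were above background. The Wnt antagonist Sfrp1 differed by 0.82 on BASE-diet and by −0.38 on the control diet (unadjusted interaction p 0.0012), but with Cy5 alone the BASE-diet difference turned to −0.08, with 4 of 6 BD 14 arrays above background. Rspo3, an enhancer of Wnt signals from endothelial cells, was lower by −1.07, with a CD 14 slide difference of −1.27 and a value of 0.17 in the slide-blocked fit.

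Antioxidant enzymes had shares near the background. Of 38 members of the antioxidant and Nrf2 list, 2 (5.3%) were higher and 1 (2.6%) was lower at an unadjusted p under 0.05, with a median of 0.11 that turned to −0.07 in the Cy5 channel alone. Gpx1, the cytosolic glutathione peroxidase, had −0.84, −0.52, −0.40, 0.03 and −0.02 in BD 3 and 0.20 to 1.28 in BD 14 (median 0.61). The groups of Gpx1 did not overlap, and its difference was 1.02 ± 0.26 (SE), at a limma adjusted p of 0.262. The CD 14 slide difference of Gpx1 was −0.89, opposite in sign, and in the slide-blocked fit its difference was 1.77. Gpx4, which reduces lipid peroxides in membranes, had −0.23, 0.50, −0.10, 0.00 and 0.12 in BD 3 and −0.65 to −0.26 in BD 14. It was lower by −0.55 ± 0.17, with no overlap, and its second probe gave −0.28. Gpx4 had a CD 14 slide difference of −0.33, of the same sign, and its slide-blocked difference was −0.14. Nfe2l2, which encodes the transcription factor Nrf2, was higher by 0.57 ± 0.17, with BD 3 rat 3 at 0.57 reaching into the BD 14 range of 0.48 to 1.02, and its slide-blocked difference was 0.28.

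Of 23 genes of fatty acid and triglyceride synthesis, 5 (21.7%) were higher in BD 14 and none was lower at an unadjusted p under 0.05, with wide spread between rats. The difference was above 0 for 20 of the 23, with a median of 0.61. In the Cy5 channel alone the median was 0.16 with 2 members higher and 2 lower, and with normexp and loess it was 0.34 with 5 higher. Elovl6, which elongates palmitate, had 0.70, −0.38, 3.31, 1.80 and −0.19 in BD 3 and 1.55 to 4.86 in BD 14. It was 2.25 ± 0.96 (SE) higher, with overlap. Fasn, fatty acid synthase, differed by 1.46 ± 0.66, Acly, which makes cytosolic acetyl-CoA, by 1.25, Thrsp by 0.74 and the pyruvate kinase gene Pklr by 0.65. The CD 14 slide difference of the list was opposite in sign (median −0.96). The array medians behind it were 0.48 and −0.03 on slide C and 0.43, 0.67 and 2.16 on slide A, the last from CD 14 rat 3. In the slide-blocked fit the median was 1.39 with 6 members higher. With single arrays left out the count ran from 0 to 8, and it was 0 without BD 3 rat 2, BD 3 rat 5 or BD 14 rat 6, 1 without BD 14 rat 1, 2 without BD 14 rat 2 or rat 4, 3 without BD 3 rat 1 and 8 without BD 14 rat 3.

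Cholesterol synthesis and uptake had 21 of 25 members above 0 (median 0.27), of which Msmo1 (0.66) and Nsdhl (0.64), both enzymes of sterol demethylation, were at an unadjusted p under 0.05. With single arrays left out the median ran from 0.13, without BD 3 rat 5, to 0.37, and it was 0.16 without BD 14 rat 2 and 0.17 without BD 14 rat 1. The count at that level was 0 when any 1 of these 3 arrays or BD 3 rat 2 was left out, 5 without CD 14 rat 3, and 0 in the slide-blocked fit, where Msmo1 was at 0.08 and Nsdhl at 1.04, and the median was 0.16 with normexp and loess. On the control diet 11 of the 25 were higher at that level, with a median of 0.72. Of 36 PPARalpha targets and genes of fatty acid oxidation, 19 were above 0 and 17 below, and only the fatty acid transporter Cd36 was at that level. Cd36 had 0.30, −1.48, 0.96, 1.98 and 1.72 in BD 3 and 1.71 to 2.89 in BD 14, a difference of 1.71 ± 0.65 (SE), and its second probe gave 1.77. On the control diet Cd36 differed by 2.32, and in the slide-blocked fit by 0.76. Fabp4, the fatty acid binding protein of adipocytes and macrophages, was higher by 2.12 ± 0.88. Its values ran from −3.14 to 1.90 in BD 3 and from −0.51 to 2.88 in BD 14. None of 18 genes of bile acid synthesis and transport was at that level.

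Of 26 cytochrome P450 genes and their receptors, 6 (23.1%) were lower in BD 14 and none was higher at an unadjusted p under 0.05, against 2.9% of all genes, and 19 were below 0 (median −0.27). Cyp3a9, a steroid and drug hydroxylase of rat liver, had 2.76, 3.77, 1.26, 1.74 and −0.09 in BD 3. It ran from −1.64 to 0.62 in BD 14, a difference of −2.07 ± 0.69 (SE). BD 3 rat 5 alone reached into the BD 14 range. Cyp1a2, which oxidises caffeine and aromatic amines, had −0.50, −0.76, −1.18, −1.22 and −1.32 in BD 3 and −3.13 to −1.05 in BD 14. It was lower by −1.05 ± 0.36, against −0.08 on the control diet, and the unadjusted p of the interaction was 0.067. The xenobiotic receptor Nr1i3 (−1.22), Cyp2f4 (−0.58), Cyp2d1 (−0.57) and Cyp2b3 (−0.46) were the others. For the whole list, the control diet gave a median of −0.23, with 4 members lower and none higher at that level. The CD 14 slide difference of the list had a median of −0.13, of the same sign, and was −0.32 for Nr1i3 and −0.08 for Cyp2f4, but 1.78 for Cyp3a9 and 1.16 for Cyp1a2. In the slide-blocked fit, 3 members were lower. The median was −0.17 without BD 14 rat 2.

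Genes that depend on growth hormone or sex had 15 of 24 members below 0 (median −0.35). Stat5a, a transcription factor of growth hormone signalling, was the only one at an unadjusted p under 0.05. Its BD 3 values were 0.24, 0.51, 0.75, 0.31 and 0.12, and BD 14 lay between −0.97 and −0.04, without overlap. The difference was −0.84 ± 0.29 (SE), at a limma adjusted p of 0.489, with a CD 14 slide difference of −0.04.

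Of 59 genes of oxidative phosphorylation, 8 (13.6%) were lower in BD 14 and none was higher at an unadjusted p under 0.05. The difference was below 0 for 44 and above 0 for 15, with a median of −0.10, against −0.17 in the Cy5 channel alone and −0.15 with centred arrays, −0.057 without BD 14 rat 3 and −0.062 with array weights. Ndufa5, a subunit of complex I, had 0.29, 0.36, 0.14, 0.31 and 0.52 in BD 3 and −0.47 to −0.09 in BD 14. The groups did not overlap, and the difference of −0.51 ± 0.16 (SE) is 1.43-fold. Its CD 14 slide difference was −0.37, and its slide-blocked difference was −0.10. Ndufb10 (−0.33, with −0.32 for its second probe), Ndufb3 (−0.35) and Cox4i1 (−0.51) did not overlap either. Cox8a (−0.38), Cox6a1 (−0.34), Ndufa3 (−0.48) and Cox6c (−0.31) were the others at that level. The slide-blocked median was −0.10, none of the 59 was at that level, and Cox4i1 (0.45), Cox8a (0.19) and Ndufa3 (0.01) turned sign. The count was 3 without BD 3 rat 2, 4 without BD 3 rat 3, and 5 without BD 3 rat 5 or without BD 14 rat 3.

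Proline dehydrogenase, Prodh, which starts proline breakdown, had 0.15, 1.73, 0.31, 0.89 and 0.29 in BD 3. Its values in BD 14 ran from −1.08 to 0.03, below all of BD 3. The difference was −1.14 ± 0.35 (SE), at a limma adjusted p of 0.409, and −1.07 on the control diet. A second probe for Prodh differed by −0.09 ± 0.86, so the probes did not give the same size, and the slide-blocked difference of the main probe was −0.66. Gls2, the liver glutaminase, was lower by −0.60 (−0.36 slide-blocked). These were the 2 of 26 genes of glucose, amino acid, proline and urea metabolism at an unadjusted p under 0.05.

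Of 16 clock genes, 2 were higher and 1 was lower at an unadjusted p under 0.05. Nr1d2, a repressor of the clock, had −1.83, −2.65, −1.29, −1.08 and −1.18 in BD 3 and −0.996 to 0.41 in BD 14, without overlap. The difference was 1.28 ± 0.40 (SE), with a CD 14 slide difference of −1.53 and 2.24 in the slide-blocked fit, and its relative Nr1d1 differed by 0.87. Cry1, which peaks at another time of day than these, was lower by −1.31 ± 0.55. The time of day of killing was not used here. Asns, asparagine synthetase, a target of the amino acid response, was the only one of 22 stress response genes at that level. It lay between −1.13 and −0.50 in BD 3. In BD 14, 4 arrays lay above 1 and the other 2 at −0.71 and −0.42, giving a difference of 1.60 ± 0.52.

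Among 22 p53 targets and senescence genes, Cdkn2b, an inhibitor of cyclin-dependent kinases, and Mdm2, which degrades p53, were higher at an unadjusted p under 0.05. Cdkn2b had 0.22, 0.23, 0.85, −0.10 and −0.31 in BD 3 and 0.87 to 2.28 in BD 14. The difference was 1.26 ± 0.38 (SE), its CD 14 slide difference was 1.102, and in the slide-blocked fit it was 0.06. Mdm2 differed by 0.76, and its second probe by 0.16. None of 21 cell cycle genes and none of 17 heat shock and immediate early genes was at that level. Of 21 stellate cell and collagen markers, Timp1, an inhibitor of matrix proteases (0.75, and 0.28 slide-blocked), and Col4a2 (0.62) were higher.

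All 21 acute phase proteins were above 0 in BD 14, with a median of 0.44, but 1 was at an unadjusted p under 0.05. On the control diet 11 of the 21 were higher at that level, with a median of 0.78. Lcn2, lipocalin 2, had 2.88, −0.41, −0.26, −0.17 and −0.63 in BD 3 and 0.72 to 3.95 in BD 14. The difference of Lcn2 was 1.92 ± 0.90 (SE), with a CD 14 slide difference of 3.00 and 0.22 in the slide-blocked fit. For the list the CD 14 slide difference had a median of 1.04, and in the slide-blocked fit the median turned to −0.47. Without BD 14 rat 2, the array with the highest list median, the median was 0.26 and no member was at that level. Over all left-out arrays, 0 to 2 members were. Of 39 complement and coagulation genes, F7, coagulation factor VII, was lower by −0.71 ± 0.21 with no overlap, against 0.00 on the control diet (unadjusted interaction p 0.029). F7 had a CD 14 slide difference of −0.74 and a value of −0.02 in the slide-blocked fit. Of the 39, 11 were higher and 1 was lower at that level on the control diet, with a median of 0.28. The 7 red cell markers tested were all above 0 (median 0.75), with array medians of −2.67 to −0.45 in BD 3 and −1.89 to 0.30 in BD 14, and none at that level. The red cell median was 0.44 without BD 3 rat 5, 0.35 in the slide-blocked fit and 0.41 in the Cy5 channel alone. Without BD 3 rat 2 or without BD 14 rat 6, 3 of the 7 were at that level, with array weights 4 and with the replicate block 5. All 15 hepatocyte markers were above background on all 11 arrays, with a median difference of 0.08. None of 5 bile duct and 4 pancreas markers was at that level, and of 9 endothelial markers the receptor Tie1 was (1.23, and 0.33 slide-blocked).

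Outside these lists, the largest difference in each direction belonged to Vxn and Mmd2. The ranking covers genes with a symbol, non-overlapping arrays and an unadjusted p under 0.05. Names that begin with LOC or RGD, and accessions, did not count as symbols. Vxn, vexin, known from neural differentiation, had 1.67, 1.73, 2.20, 0.87 and 1.27 in BD 3 and 2.96 to 5.01 in BD 14 (median 4.51). The difference was 2.71 ± 0.53 (SE), 6.54-fold, at a limma adjusted p of 0.0994, and its second probe gave 1.84. On the control diet Vxn differed by 0.50, and the interaction had an unadjusted p of 0.0079. Mmd2, a membrane protein of the progestin and adipoQ receptor family, had −0.42, 0.18, −2.02, −0.86 and −2.65 in BD 3 and −5.14 to −2.94 in BD 14. The difference of Mmd2 was −2.94 ± 0.62, 7.66-fold, and −2.71 on the control diet. Its CD 14 slide difference was −1.36, of the same sign, and its slide-blocked difference was −1.52.

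Inmt, which methylates tryptamine and related amines, had −1.69, 1.08, 0.39, −0.14 and 0.92 in BD 3. It ran from −3.62 to −1.81 in BD 14, with a median of −2.39, below all of BD 3. The difference of Inmt was −2.70 ± 0.65 (SE), 6.51-fold, at a limma adjusted p of 0.237. It was −2.57 on the control diet, the CD 14 slide difference was 1.31 with the opposite sign, and in the slide-blocked fit the difference was −4.33.

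**Figure D3:**
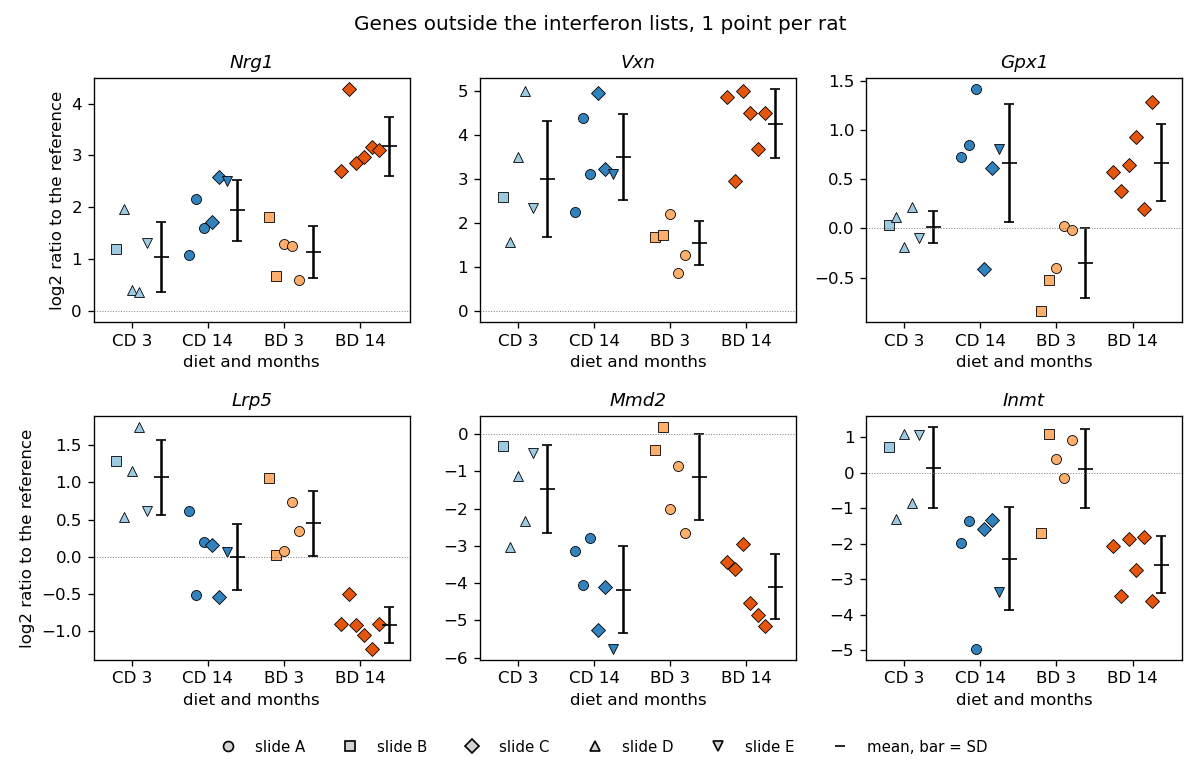
Log2 ratio to the common reference (y) of 6 genes outside the interferon lists by diet and months (x), 1 point per rat, with the shape giving the slide, and the mean with its SD beside each group. BD 14 lies above BD 3 for Nrg1, Vxn and Gpx1 and below it for Lrp5, Mmd2 and Inmt. CD 14 lies below CD 3 for Inmt, where CD 14 ran from −4.95 to −1.32 and CD 3 from −1.30 to 1.097. For Mmd2 the control groups overlap, with CD 14 from −5.75 to −2.78 and CD 3 from −3.03 to −0.33.

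The other genes among the 12 largest positive differences were Tnfrsf21, the death receptor 6 (2.33), Elavl2, an RNA-binding protein of neurons (2.26), Rgs1 (2.02) and Rgs4 (1.88), which switch off G proteins, Cdyl2, a chromodomain protein (1.94), Ackr3, a scavenging receptor for Cxcl12 (1.92), and Selp, P-selectin (1.81). Tnfrsf21 had 0.61, −1.62, −0.57, 0.08 and −1.14 in BD 3 and 0.66 to 3.57 in BD 14, and it was higher by 2.19 on the control diet. Ackr3 had −1.83 to −0.40 in BD 3 and −0.15 to 2.48 in BD 14 and differed by 0.10 on the control diet (unadjusted interaction p 0.012). The CD 14 slide difference was 1.99 for Rgs4, 1.68 for Selp, 1.63 for Rgs1 and 1.49 for Elavl2. Of these genes, Selp was well above background on 1 of 5 BD 3 arrays, Ackr3 on 2, Elavl2 on 3, and Cdyl2 and Rgs4 on 4. These 5 were kept through BD 14 alone, where they were high, so their place among the largest rests in part on the filter, and their BD 3 levels are uncertain. In the slide-blocked fit Elavl2 differed by 0.78, Rgs1 by 0.68, Ackr3 by 0.66, Cdyl2 by 1.20 and Selp by 0.12. Among genes with a symbol whose groups did not overlap, the remaining largest negative differences were those of Plcxd2 (−1.40), Ptch1, the hedgehog receptor (−1.39), Tulp1 (−1.34), Celf5, an RNA-binding protein (−1.34), the zinc finger protein Zfp64 (−1.33), Sobp (−1.31), Chm, a Rab escort protein (−1.20), and Pou1f1, a transcription factor of the pituitary (−1.12). Tulp1 and Pou1f1 differed by 0.40 and 0.30 on the control diet, with unadjusted interaction p of 0.0048 and 0.0052, but with Cy5 alone the BASE-diet difference of Pou1f1 turned to 0.65. Tulp1 had no value on CD 3 rat 1 and CD 14 rat 1, where its spots were dropped. Sobp (−2.19), Ptch1 (−1.87), Chm (−1.37) and Tulp1 (−1.18) had CD 14 slide differences of the same sign. Rgs4 turned in the slide-blocked fit to −0.71, Sobp to 0.96, Ptch1 to 0.44 and Chm to 0.38, while Plcxd2 was at −0.53, Tulp1 at −0.33 and Celf5 at −0.17. A second probe for Chm differed by 0.56, against −1.20 for its main probe, and a second probe for Plcxd2 by −0.16. That for Cdyl2 differed by 0.87, against 1.94 for its main probe. Of the 13 further probes of genes named here, only that of Chm had the opposite sign.

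**Figure D4:**
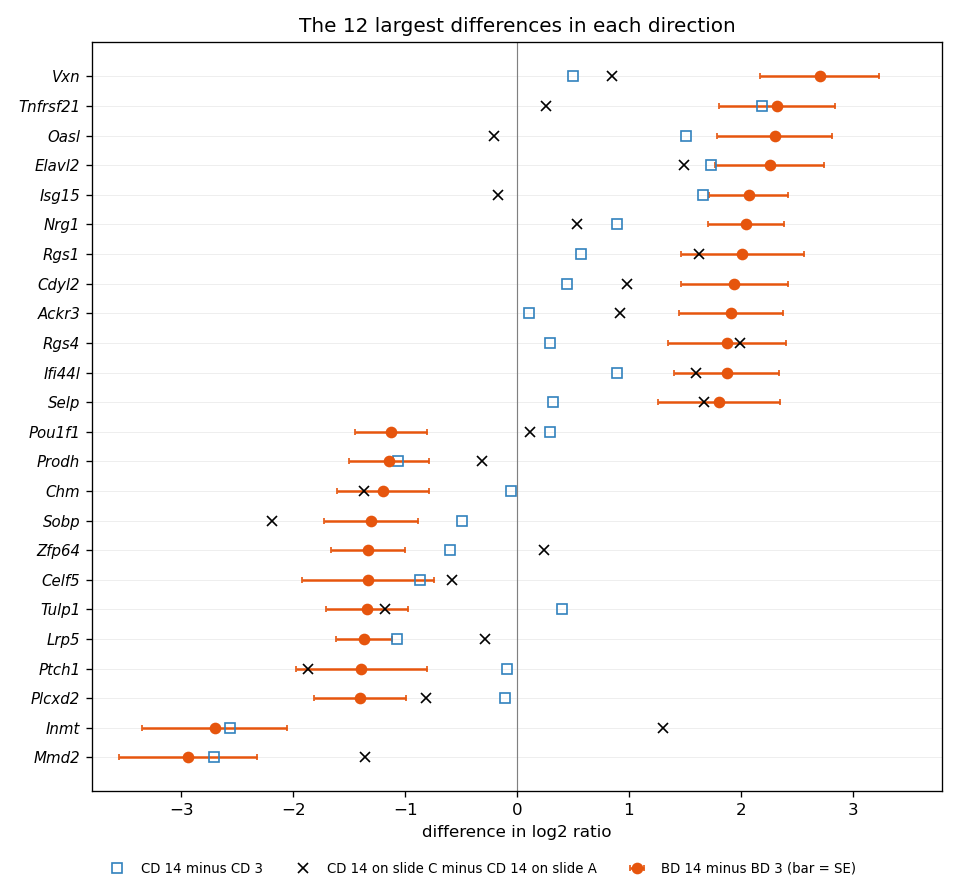
The 12 largest differences in each direction (y) among genes with a symbol, an unadjusted p under 0.05 and no overlap of BD 14 and BD 3 arrays, as the difference in log2 ratio (x) with its SE (filled circles), beside the time difference on the control diet (open squares) and the CD 14 slide difference (crosses). The squares of Tnfrsf21 (2.19 beside 2.33), Inmt and Prodh lie close to their circles, and so do the crosses of Rgs4 (1.99 beside 1.88), Selp, Ifi44l, Chm and Tulp1.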

How the data were processed

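Agilent two-colour rat arrays were hybridised with liver RNA of 22 rats (58717 non-control spots, 30367 probes). By the labels, Cy5 held the RNA of the rat and Cy3 a common reference, without dye swap. The authors' deposited scanner files, from Agilent Feature Extraction (version 10.7.3.1 by the labels, another in the file headers), hold intensity per spot, already background-subtracted and dye-normalized, and a deposited log10 ratio of Cy5 to Cy3. That ratio is 0 where both channels are surrogates for undetected signal. The deposited log10 ratios were converted to log2, spots that were controls or non-uniform were dropped, and the others were averaged per probe. Annotated positions are those of rn4. The authors' table of selected genes was not used.

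Probes were kept when well above background in Cy5 on every BD 3 array or on every BD 14 array, for at least 0.50 of their spots. Of 19282 kept, 715 passed through BD 3 alone, 890 through BD 14 alone, and 684 lacked a value on some array, which the fit dropped there. The 4 group means were fitted over all 22 arrays with limma 3.58.1 in R 4.3.3 (lmFit, eBayes) with Benjamini-Hochberg adjustment over the kept probes, and the fit was tested on simulated data. Each rat had its own array, so the p-values measure the spread between arrays within a group, with rat, array and slide together. They do not cover the slide difference between BD 14 and BD 3. The number of arrays limits the precision. A gene is its brightest kept probe, and symbols came from RefSeq accessions (17997 probes), current symbols (2676), synonyms (547) or the files alone (9147).

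The members and gene lists were chosen with earlier results of these data known. Named genes are those past the adjusted p, the 12 largest non-overlapping differences each way at an unadjusted p under 0.05, up to 4 members per list by p, and Gpx1, Irf7 and Prodh. Others at that level in 5 lists (27 genes with Dph3) were named after their values were seen, and some genes are not reported here. Alternatives were the background correction, Cy5 alone, centring, detection filters, non-uniform spots, array sets and weights, slide and replicate blocks, and the F test and Tukey's HSD of the methods. Tables and figures used Python 3.11.15, pandas 2.3.3, numpy 2.4.6 and matplotlib 3.10.9.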

Additional observations from a re-analysis of the deposited data

Results flagged for a closer look

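Among 198 sets of array values (99 named genes in BD 3 and in BD 14), 16 had 1 array far from the rest of its group by Dixon's test, where chance gives about 10. BD 14 rat 2 held 6 of the 16. It was highest for Nrg1 (4.27, the next at 3.15), Selp (2.94, next 1.57), Eif2ak2 (2.40, next 0.66), Cry1 (1.89, next 0.15) and Jak2 (0.96, next 0.28). It was lowest for Cyp2f4 (−1.12, next −0.26). Without this array the interferon-stimulated effectors had 20 members higher at an unadjusted p under 0.05 and a median of 0.91, against 20 and 0.90 with it.

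In BD 14, rat 6 was highest for Oasl (4.28, next 2.61), rat 5 highest for Zbp1 (2.16, next 1.12) and lowest for Ndufa5 (−0.47, next −0.18). Rat 3 was lowest for Pou1f1 (−0.89, next −0.37) and Hbegf (0.14, next 0.58), and rat 1 highest for Nsdhl (0.89, next 0.49). In BD 3, rat 1 was highest for Lcn2 (2.88, next −0.17), rat 2 for Cry1 (2.48, next 1.22), rat 4 for Rgs4 (−0.0035, next −0.998) and rat 5 for Plcxd2 (−0.61, next −1.42).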

How the results depend on the processing

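The count of probes at an adjusted p under 0.05, which was 0, became 13 in the Cy5 channel alone, 3 with the strict detection filter, 3 with 1 probe per gene, 24 with only the BD arrays, 99 with array weights and 1 with the methods' F test and Tukey's HSD, and the cause was not tested. It ran from 0 to 5 with single arrays left out: 5 without CD 3 rat 4, 2 without BD 14 rat 2, and 1 without CD 14 rat 2, CD 14 rat 6 or BD 14 rat 5. At an unadjusted p under 0.05 the count of 1421 became 2686 in Cy5 alone, 2288 without a detection filter (30367 probes tested), 2815 with only the BD arrays, 2942 with array weights, 901 with the slide block and 415 with the methods' test, and it ran from 1106 to 1818 with single arrays left out. The share of higher probes among them, 63.5%, was 47.4% in Cy5 alone, 50.9% without a filter, 52.4% with centred arrays and 52.2% with normexp and loess. The interaction had 0 probes past the adjusted test in each alternative that gave it. Of 99 named genes, 17 changed direction under some of 35 alternatives. With Cy5 alone these were Sfrp1 (−0.0802) and Pou1f1 (0.65). With the slide block they were Rgs4 (−0.71), Sobp (0.96), Hbegf (−0.0887), Chm (0.38), Samd9 (−0.0504), Gzmk (−1.42), Cox8a (0.19), Ndufa3 (0.0114), Ptch1 (0.44), Cox4i1 (0.45), Zbp1 (−0.14), Rspo3 (0.17), Jak2 (−0.30), Ifitm3 (−0.13) and Oas3 (−0.84). The median of 20 of 32 gene lists changed sign under some alternative.

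With the rat number as a replicate block, 1492 probes had an unadjusted p under 0.05 and 0 an adjusted one. The numbers did not pair the rats: the deviations of same-numbered BD 3 and BD 14 rats correlated at 0.26, 0.23, −0.08, −0.18 and 0.05.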
